A study of Homo sapiens with 6 samples.

Results

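The epithelial junction and polarity genes are 40 genes of adherens junctions, tight junctions, desmosomes, cell polarity and epithelial identity, read from a table of 60643 genes by symbol. All 40 were found, each on a single row. By class they are 9 adherens junction genes, 15 tight junction genes, 7 desmosome genes, 4 polarity genes and 5 genes of epithelial identity. The values are FPKM, fragments scaled to transcript length and to the size of the library, so levels can be compared between genes.

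The cells were HCT116, an established human colorectal cancer line grown as an adherent epithelium, and in all libraries they carried an shRNA (a short hairpin RNA that lowers its target's mRNA) against CAPG that doxycycline switches on. There were 3 libraries of cells given doxycycline for 3 days at 100 ng/µl, the unit as labelled, which the labels call CAPG Knockdown, and 3 libraries of untreated cells, which the labels call WT. Libraries of cells given the drug without this hairpin were not analysed here, so the drug and the hairpin cannot be told apart. The library descriptions name a single hairpin line (shCAPG-2), and no label ties replicates to separate cultures. The p-values therefore set the group difference against the scatter between these libraries, and that scatter may be technical.

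Epithelial cells hold together through adherens junctions, in which cadherins bind the neighbouring cell and catenins tie them to actin, and through desmosomes, in which other cadherins are tied to keratin by plakin proteins. Tight junctions, built from claudins, MARVEL proteins and cytoplasmic scaffolds, seal the space between cells. The PAR and Crumbs complexes place these junctions at the border between the apical and basolateral membrane. CAPG caps the growing ends of actin filaments, to which adherens and tight junctions are anchored.

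CAPG itself (chromosome 2) had 8.18, 8.03 and 9.97 FPKM with doxycycline, against 61.1, 56.9 and 53.7 FPKM without it. The groups were far apart (log2 change -2.59, SE 0.10, limma adjusted p = 7.24e-06), and the exact two-sided permutation p was 0.1, the smallest that 3 against 3 libraries allow. Estimated depth was 14100000 fragments in untreated replicate 3 and between 17700000 and 18100000 in the other 5 libraries. FPKM summed to 586911 in replicate 3 with doxycycline, above the other 5 libraries. The simple epithelial keratins KRT8, KRT18 and KRT19 together had 1602 to 1904 FPKM with doxycycline, against 1429 to 1640.2 FPKM without it. Of 7 colon markers only the transcription factor CDX2 reached 1 FPKM (4.83 to 6.35 with, 4.41 to 4.63 without), while CDX1 was listed at 0 in all 6 libraries and VIL1, CDH17, GPA33, KRT20 and LGALS4 stayed under 1 FPKM. Of 7 fibroblast, 6 leukocyte and 4 endothelial markers, COL1A1 (7.49 to 9.75 with, 7.88 to 10.9 without) and CD68 (1.57 to 2.26 with, 3.57 to 4.48 without) were the only genes to reach 1 FPKM in any library. The summed leukocyte markers, nearly all CD68, had 2.59 to 2.77 FPKM with doxycycline and 4.399 to 5.17 FPKM without it. PTPRC, which defines leukocytes, stayed under 0.2 FPKM in all 6 libraries. The part of CD68 and of the larger FPKM total of treated replicate 3 in the results was not tested, beyond the fits with equal totals and without that library. Nor was the part of the lower depth of untreated replicate 3, beyond the fit without it.

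Most junction and polarity genes did not pass the test, and of the 6 that did, 5 rose and 1 fell. Of the 40 genes, 38 had at least 1 FPKM in at least 3 libraries and were tested on the log2(FPKM + 1) scale with limma, with p-values adjusted over all 14475 tested genes. At an adjusted p under 0.05, 5 were higher with doxycycline (PARD6B, EVPL, DSC2, MARVELD3 and EPCAM), 1 was lower (CDH3) and 32 did not pass. That is 13.2% higher and 2.63% lower, against 3.69% and 4.77% of all tested genes (8.46% in either direction). The members were chosen with earlier results of these data known. At an unadjusted p under 0.05 there were 11 members, where 27.9% of all tested genes lay. With libraries scaled to equal FPKM totals, 2 were higher and 1 lower. The median log2 change of the 38 genes was 0.08, and that of all tested genes was -0.003. The 2 groups of libraries did not overlap for 14 of the 38 genes (36.8%), a share near the 34.5% of all tested genes. In bulk RNA, fewer cells that express a gene and less RNA per cell cannot be told apart.

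**Figure D1:**
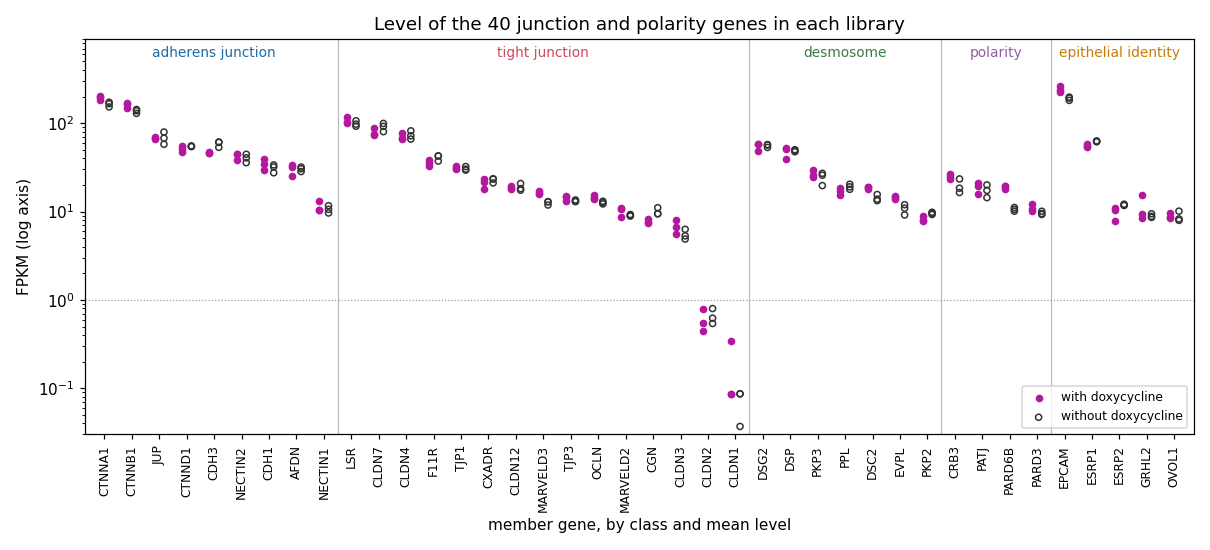
FPKM (log axis) of the 40 genes in each of the 6 libraries, ordered by class and mean level, with filled points for libraries with doxycycline and open points for libraries without it. EPCAM and CTNNA1 are the highest, and CLDN2 and CLDN1 lie under the dotted line at 1 FPKM in all libraries.

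Levels spanned a wide range. EPCAM had the highest mean of the 40 genes, 241 ± 19.98 FPKM with doxycycline and 190.1 ± 8.12 FPKM without it (SD, n = 3 each). CLDN1 and CLDN2 had the lowest. CLDN2, a claudin that forms pores for cations, had 0.554, 0.794 and 0.440 FPKM with doxycycline, against 0.622, 0.798 and 0.541 FPKM without it. CLDN1, a sealing claudin, had 0.0866, 0.0863 and 0.343 FPKM with doxycycline, against 0.0864, 0.0868 and 0.0370 FPKM without it. Both were under 1 FPKM in all 6 libraries, so neither was tested. The highest CLDN1 value was that of treated replicate 3.

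The largest change among the tested members was that of a single polarity gene. PARD6B (ENSG00000124171, chromosome 20, 50731580 to 50756795, plus strand, GRCh38) encodes a PAR6 scaffold that brings atypical protein kinase C and CDC42 to the apical junction. It had 19.7, 19.3 and 17.9 FPKM with doxycycline, against 10.1, 10.6 and 11.1 FPKM without it. All 3 treated libraries lay above all 3 untreated ones by a wide margin. PARD6B rose by 79.2% of its untreated mean (log2 change 0.79, SE 0.09, 95% interval 0.59 to 0.98, limma adjusted p = 0.00228). Dropping any 1 of the 6 libraries left it past the threshold (largest adjusted p 0.0165), as did the other 8 alternatives that were run.

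The paralogues of PARD6B did not pass the test. PARD6A was at 2.48 ± 0.269 FPKM with doxycycline and 2.68 ± 0.541 FPKM without it, with an interval for the log2 change of -0.38 to 0.24. PARD6G was at 8.98 ± 0.373 FPKM with doxycycline and 8.63 ± 0.629 FPKM without it, with an interval of -0.16 to 0.26. PARD6B made up 63.9%, 63.0% and 60.1% of the summed FPKM of the 3 paralogues with doxycycline, against 45.0%, 47.7% and 52.6% without it. The partners of PAR6 did not pass either. PRKCI, PRKCZ and CDC42 had adjusted p-values of 0.510, 0.893 and 0.141.

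The other polarity members had positive changes that did not pass. CRB3, the Crumbs protein of most epithelia, had 24.9, 23.3 and 26.7 FPKM with doxycycline, against 23.4, 18.4 and 16.4 FPKM without it. The groups overlapped through untreated replicate 1, and the limma adjusted p of 0.0987 became 0.0427 when that library was left out and 0.0344 after correction for transcript length and GC content. PATJ, the scaffold that joins Crumbs to the tight junction, had 15.8, 19.4 and 21.2 FPKM with doxycycline, against 14.4, 20.01 and 17.3 FPKM without it. PARD3, the scaffold that recruits PAR6, was at 11.04 ± 1.08 FPKM with doxycycline and 9.61 ± 0.419 FPKM without it, with no overlap but an adjusted p of 0.267. In this class of 4 members 1 was higher (25.0%, against 3.69% of all tested genes) and 0 were lower, too few genes to set against that share. The median log2 change of the 4 polarity members was 0.27.

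**Figure D2:**
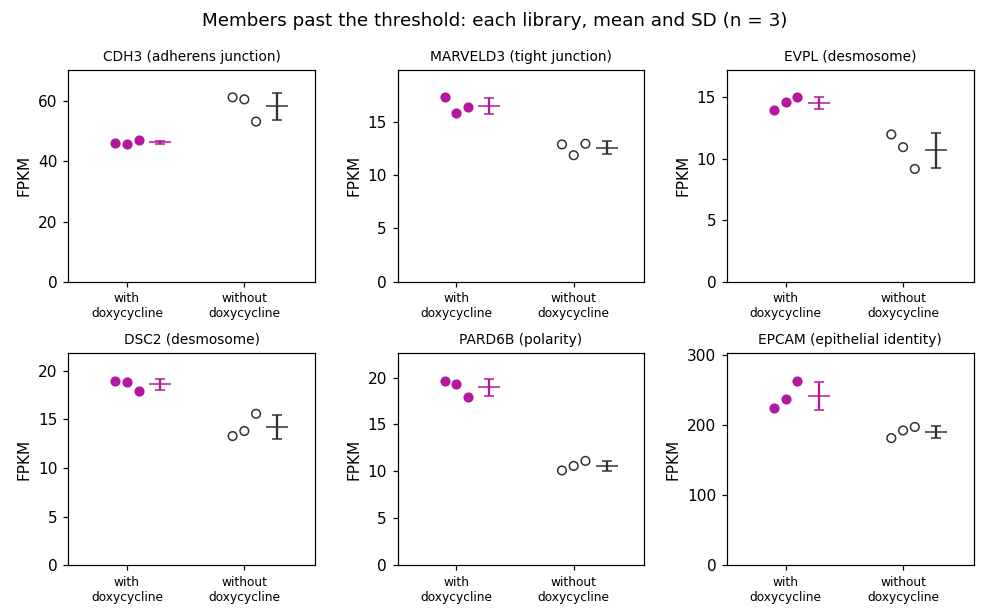
FPKM in each library for the 6 members past the threshold, with the mean and SD of each group (n = 3) beside the points; libraries with doxycycline are on the left of each panel and libraries without it on the right. PARD6B shows the widest gap, 17.9 to 19.7 against 10.1 to 11.1 FPKM, and CDH3 is the only panel in which the treated libraries are the lower ones.

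In adherens junctions 1 cadherin fell, and no catenin passed the test. CDH3, which encodes P-cadherin, fell to 46.3, 45.9 and 47.0 FPKM with doxycycline, against 61.3, 60.7 and 53.3 FPKM without it. The groups did not overlap, and the mean of CDH3 changed by -20.6% (log2 change -0.32, SE 0.08, limma adjusted p = 0.0417). CDH1, which encodes E-cadherin, the main cadherin of epithelia, had 34.5, 38.9 and 29.6 FPKM with doxycycline, against 33.7, 31.98 and 27.5 FPKM without it. It did not pass (adjusted p = 0.478, interval -0.12 to 0.40). These genes are neighbours on chromosome 16, read from the same strand with 14675 bases between them (CDH3 at 68636189 to 68722616, CDH1 at 68737292 to 68835541, GRCh38). The ratio of CDH1 to CDH3 was 0.746, 0.848 and 0.630 with doxycycline, against 0.550, 0.527 and 0.516 without it, a description chosen after the values were seen. The ratio was higher in every treated library.

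Dropping a library ended the CDH3 call in 5 of 6 cases, while its log2 change stayed between -0.39 and -0.29. Its adjusted p was 0.0993, 0.122 and 0.0522 without treated replicates 1, 2 and 3, and 0.104 and 0.174 without untreated replicates 1 and 2. Without untreated replicate 3 it passed (0.0381).

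The catenins that link cadherins to actin had higher values with doxycycline but did not pass. CTNNA1, alpha-catenin, had 196, 182 and 202 FPKM with doxycycline, against 172, 166 and 153 FPKM without it (log2 change 0.24, limma adjusted p = 0.0945). CTNNB1, beta-catenin, had 164, 168 and 149 FPKM with doxycycline, against 143, 138 and 129 FPKM without it (log2 change 0.23, adjusted p = 0.107). Neither gene's groups overlapped. CTNNB1 passed without treated replicate 3 (0.0417), and both passed after correction for transcript length and GC content (0.0477 for CTNNA1 and 0.0491 for CTNNB1).

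The remaining adherens members showed overlapping groups. CTNND1, the p120-catenin that keeps cadherins at the surface, was at 51.0 ± 4.01 FPKM with doxycycline and 54.7 ± 0.428 FPKM without it. JUP, plakoglobin, which serves adherens junctions and desmosomes, was at 68.2 ± 1.73 FPKM with doxycycline and 68.2 ± 10.9 FPKM without it. The nectins, which bind across cells beside cadherins, were at 11.3 ± 1.54 (NECTIN1) and 42.9 ± 3.67 FPKM (NECTIN2) with doxycycline, against 10.6 ± 1.001 and 40.2 ± 4.37 FPKM without it. Their actin-binding partner AFDN was at 30.1 ± 4.51 FPKM with doxycycline and 30.2 ± 1.80 FPKM without it. In this class of 9 members 0 were higher and 1 was lower (11.1%, against 4.77% of all tested genes). The median log2 change was 0.08.

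In desmosomes a desmocollin and a plakin rose while the most abundant members did not pass. DSC2, the desmosomal cadherin desmocollin 2 (chromosome 18, 31058840 to 31102522, minus strand, GRCh38), had 19.0, 18.9 and 18.0 FPKM with doxycycline, against 13.3, 13.8 and 15.6 FPKM without it. The groups did not overlap (log2 change 0.37, SE 0.09, limma adjusted p = 0.0376). EVPL, envoplakin, a plakin better known from the cornified envelope of stratified epithelia (chromosome 17, 76004502 to 76027306, minus strand), had 13.9, 14.6 and 15.0 FPKM with doxycycline, against 11.95, 10.9 and 9.15 FPKM without it. Its groups did not overlap either (log2 change 0.42, SE 0.11, adjusted p = 0.0440).

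Dropping a library ended each of these calls in 5 of 6 cases, while the log2 change stayed between 0.32 and 0.43 for DSC2 and between 0.32 and 0.49 for EVPL. DSC2 had an adjusted p of 0.101, 0.114 and 0.0502 without treated replicates 1, 2 and 3, and 0.0931 and 0.148 without untreated replicates 1 and 2. EVPL had 0.0814, 0.113 and 0.0881 without treated replicates 1, 2 and 3, and 0.124 and 0.0894 without untreated replicates 2 and 3. DSC2 passed without untreated replicate 3 (0.0389), and EVPL without untreated replicate 1 (0.0496). With libraries scaled to equal FPKM totals neither passed (0.0885 for DSC2 and 0.0604 for EVPL).

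DSG2, the desmoglein that pairs with DSC2, had 57.7, 58.8 and 48.2 FPKM with doxycycline, against 53.1, 57.3 and 56.4 FPKM without it. DSP, desmoplakin, which ties the plaque to keratin, had 50.8, 52.4 and 39.8 FPKM with doxycycline, against 48.6, 50.1 and 47.5 FPKM without it. In both genes treated replicate 3 was the lowest library and the groups overlapped. The intervals for the log2 change were -0.23 to 0.19 (DSG2) and -0.28 to 0.20 (DSP). The ratio of DSC2 to DSG2 was 0.329, 0.321 and 0.372 with doxycycline, against 0.250, 0.241 and 0.276 without it. The plakophilins, which strengthen the plaque, were at 8.29 ± 0.520 (PKP2) and 26.9 ± 2.66 FPKM (PKP3) with doxycycline, against 9.55 ± 0.277 and 24.2 ± 3.96 FPKM without it. The plakin PPL, periplakin, was at 16.9 ± 1.52 FPKM with doxycycline and 19.1 ± 1.27 FPKM without it. None of these passed. In this class of 7 members 2 were higher (28.6%, against 3.69% of all tested genes) and 0 were lower, too few genes to set against that share. The median log2 change of the 7 desmosome members was -0.02.

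The promoters of the desmosomal cadherins and of desmoplakin are shown because DSC2 passed and its partners did not. All 3 hold the same E-box, CACCTG on either strand, and whether it has a part in these values was not tested. This hexamer is the form of the E-box that SNAI and ZEB repressors bind, known from the CDH1 promoter. Each sequence runs 5′ to 3′ on the gene's strand and ends at the base before the outermost start among the table, RefSeq and GENCODE 29, with the E-box in capitals (RefSeq, GRCh38.p14). The windows are chr18:31102523-31102671 on the minus strand for DSC2, chr18:31497927-31498042 on the plus strand for DSG2 and chr6:7541421-7541574 on the plus strand for DSP.
DSC2: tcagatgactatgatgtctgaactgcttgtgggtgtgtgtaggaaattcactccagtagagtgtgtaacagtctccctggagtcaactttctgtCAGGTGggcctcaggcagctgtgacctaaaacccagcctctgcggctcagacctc
DSG2: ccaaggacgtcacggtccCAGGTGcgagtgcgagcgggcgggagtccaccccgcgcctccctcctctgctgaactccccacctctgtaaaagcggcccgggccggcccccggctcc
DSP: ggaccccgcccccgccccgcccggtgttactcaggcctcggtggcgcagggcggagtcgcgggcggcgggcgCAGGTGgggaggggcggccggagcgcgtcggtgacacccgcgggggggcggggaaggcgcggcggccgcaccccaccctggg
These windows are 149, 116 and 154 bases long. The DSC2 window has a GC content of 51.7%, and those of DSG2 and DSP have 73.3% and 83.8%.

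Of the 40 members, 22 had an entry in the RefSeq promoter table. Over the 250 bases before the most upstream RefSeq start, 8 of the 22 (36.4%) held CACCTG on either strand, against 17.5% of all 27305 genes in that table. Besides DSC2, DSG2 and DSP they were AFDN, CRB3, OCLN, PATJ and TJP1, and only DSC2 among them passed the test. The motif AACCNGTT, the form that grainyhead-like factors such as GRHL2 bind, stood in 1 of the 22 windows (CGN), against 1.5% of all genes. A match of letters is a description and does not show binding.

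In tight junctions a single member rose. MARVELD3, a four-span protein of the occludin family (chromosome 16, 71626161 to 71642114, plus strand, GRCh38), had 17.3, 15.8 and 16.3 FPKM with doxycycline, against 12.9, 11.9 and 12.9 FPKM without it. The groups did not overlap (log2 change 0.37, SE 0.09, limma adjusted p = 0.0328). Its adjusted p was 0.103, 0.0825 and 0.0507 without treated replicates 1, 2 and 3, 0.0646, 0.150 and 0.0564 without untreated replicates 1, 2 and 3, and 0.0686 with equal FPKM totals. MARVELD3 shares 1068 exonic bases with PHLPP2 on the opposite strand, which was at 3.43 FPKM with doxycycline and 4.09 FPKM without it, and since no source used here states strandedness, reads from that stretch cannot be told apart.

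The other MARVEL proteins had smaller differences. OCLN, occludin, was at 14.4 ± 0.985 FPKM with doxycycline and 12.6 ± 0.439 FPKM without it, with no overlap and an adjusted p of 0.219. MARVELD2, tricellulin, which sits where 3 cells meet, was at 10.1 ± 1.28 FPKM with doxycycline and 9.04 ± 0.186 FPKM without it. OCLN and MARVELD2 lie 47961 bases apart on chromosome 5. LSR, which recruits tricellulin to those corners, had 103, 100.0 and 117 FPKM with doxycycline, against 107, 97.6 and 92.4 FPKM without it, with overlapping groups.

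The claudins, which form the strands, did not pass. CLDN7 had 73.6, 75.7 and 87.6 FPKM with doxycycline, against 99.4, 92.1 and 80.2 FPKM without it, and overlapped through treated replicate 3 (adjusted p = 0.253). CLDN4 was at 70.4 ± 6.32 FPKM with doxycycline and 73.3 ± 8.01 FPKM without it. CLDN3, its neighbour on chromosome 7, was at 6.71 ± 1.19 FPKM with doxycycline and 5.50 ± 0.723 FPKM without it. CLDN12 was at 18.8 ± 0.797 FPKM with doxycycline and 18.8 ± 1.74 FPKM without it. It shares 347 exonic bases with GTPBP10 and 201 with CDK14, both on the same strand. GTPBP10 was at 20.6 FPKM with doxycycline and 17.9 FPKM without it, and CDK14 at 4.90 and 7.14 FPKM.

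Among the scaffolds and adhesion receptors of the tight junction, CGN had the lowest change. CGN, cingulin, which links the junction to actomyosin, had 7.49, 8.18 and 7.63 FPKM with doxycycline, against 11.05, 9.42 and 9.47 FPKM without it. The groups did not overlap, but the adjusted p was 0.0723 (log2 change -0.32), and 0.0397 after correction for length and GC content. TJP1, the scaffold ZO-1, was at 31.3 ± 1.34 FPKM with doxycycline and 30.6 ± 1.496 FPKM without it, and TJP3, ZO-3, at 14.2 ± 0.944 FPKM with it and 13.2 ± 0.299 FPKM without it. The receptors F11R (JAM-A) and CXADR were at 35.6 ± 2.55 and 20.9 ± 2.73 FPKM with doxycycline, against 40.8 ± 3.08 and 22.6 ± 1.34 FPKM without it. F11R shares 1853 exonic bases with AL591806.3 on the same strand, which was at 3.36 FPKM with doxycycline and 3.15 FPKM without it. Of the 13 tested tight junction members, 1 was higher (7.69%, against 3.69% of all tested genes) and 0 were lower, with a median log2 change of 0.03. MARVELD3 and CGN were the 2 tight junction members with an unadjusted p under 0.05, where 27.9% of all tested genes lay.

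**Figure D3:**
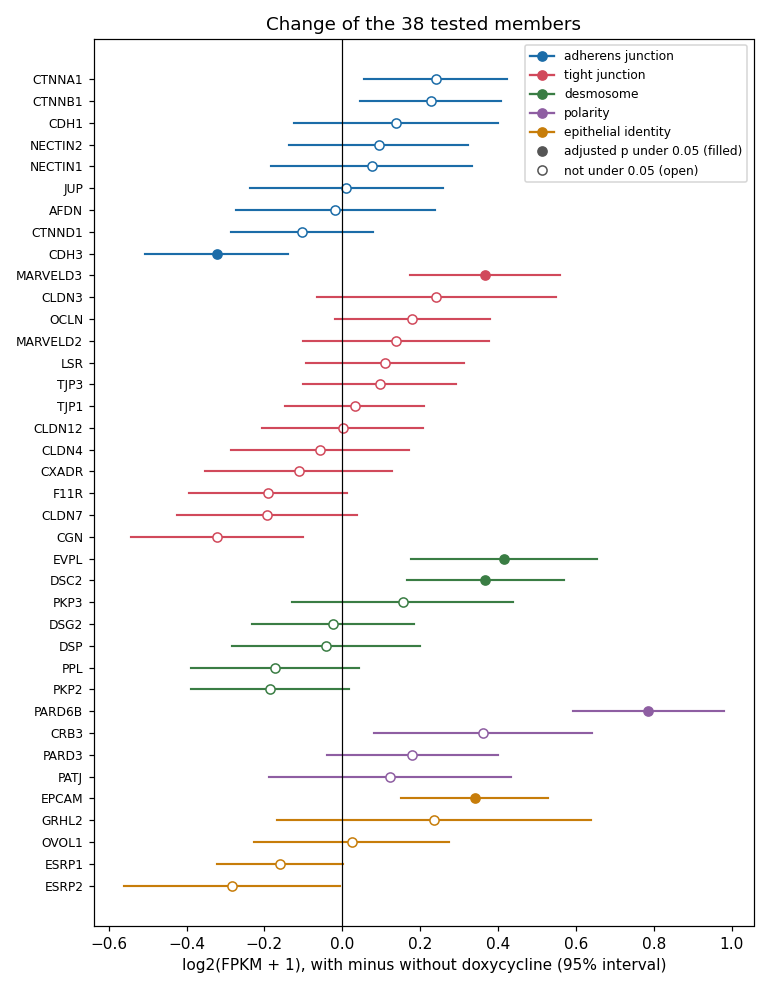
Log2 change (with minus without doxycycline, on log2(FPKM + 1)) of the 38 tested members with its 95% interval, coloured by class, with filled points for an adjusted p under 0.05. PARD6B stands at 0.79, apart from the other members, which lie between -0.32 and 0.42.

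Among the 5 genes of epithelial identity EPCAM rose, and no other member passed the test. With 1 of 5 higher and 0 lower, these are too few genes to set against the 3.69% and 4.77% of all tested genes. The median log2 change of the 5 identity members was 0.02. EPCAM, a surface adhesion molecule that stabilises claudins (chromosome 2, 47345158 to 47387601, plus strand, GRCh38), had 224, 236 and 263 FPKM with doxycycline, against 181, 192 and 197 FPKM without it. The groups did not overlap (log2 change 0.34, SE 0.08, limma adjusted p = 0.0401). Its adjusted p was 0.0532 and 0.102 without treated replicates 1 and 2, and 0.112, 0.139 and 0.0768 without untreated replicates 1, 2 and 3. EPCAM passed without treated replicate 3 (0.0371), and its log2 change stayed between 0.28 and 0.39 in these fits.

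The epithelial splicing regulators had lower values with doxycycline without passing the test. ESRP1 had 54.2, 54.7 and 58.1 FPKM with doxycycline, against 61.7, 62.0 and 63.0 FPKM without it (adjusted p = 0.184). ESRP2 had 10.96, 10.4 and 7.74 FPKM with doxycycline, against 11.7, 12.1 and 11.8 FPKM without it (adjusted p = 0.169). In both genes every treated library lay below every untreated one. ESRP2 shares 149 exonic bases with NFATC3 on the opposite strand, which was at 7.41 FPKM with doxycycline and 7.87 FPKM without it. The transcription factor GRHL2, an activator of junction genes, had 9.46, 15.3 and 8.42 FPKM with doxycycline, against 8.58, 9.44 and 8.82 FPKM without it, so its mean rested on treated replicate 2. The log2 change of GRHL2 was 0.24 and became -0.002 without that library. OVOL1, a zinc finger repressor of mesenchymal genes, was at 8.90 ± 0.692 FPKM with doxycycline and 8.77 ± 1.16 FPKM without it.

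**Figure D4:**
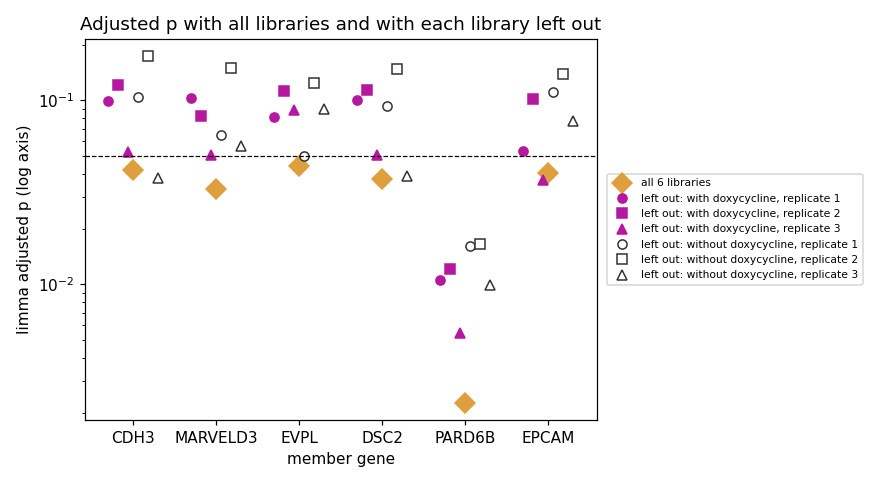
Limma adjusted p (log axis) of the 6 members past the threshold, with all 6 libraries (diamond) and with each library left out in turn (filled, a library with doxycycline; open, a library without it). The dashed line is 0.05, and PARD6B is the only gene for which all points lie under it.

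Left-out libraries changed the number of members past the threshold. The count of higher members was 1, 1 and 3 without treated replicates 1, 2 and 3, and 3, 1 and 2 without untreated replicates 1, 2 and 3, where 5 were higher with all libraries. The plot of adjusted p with each library left out shows that PARD6B was among them every time.

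The same classes hold 110 further genes, listed from textbook knowledge with earlier results of these data known. Of these, 74 were tested, 2 were higher and 4 lower with doxycycline, 2.70% and 5.41%, near the shares of all tested genes. The median log2 change of these 74 genes was -0.02.

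Of 13 tested other adherens genes, VCL fell and NECTIN4 rose, 7.69% each way, against 4.77% lower and 3.69% higher among all tested genes. VCL, vinculin, which reinforces the link to actin under tension, was at 37.7, 38.8 and 33.3 FPKM with doxycycline, against 53.3, 48.7 and 50.8 FPKM without it (log2 change -0.47, limma adjusted p = 0.0161, and 0.0537 and 0.0604 without untreated replicates 1 and 2). NECTIN4 was at 3.02, 2.71 and 2.71 FPKM with doxycycline, against 1.90, 1.30 and 1.77 FPKM without it (log2 change 0.53, adjusted p = 0.0360). NECTIN4 missed the threshold whichever library was left out: 0.0972, 0.0877 and 0.0657 for treated replicates 1, 2 and 3, and 0.0592, 0.137 and 0.0659 for untreated ones. Vinculin is also a focal adhesion protein, so its level does not belong to cell-cell junctions alone.

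Of 17 tested other tight junction genes, 0 passed by limma and 3 had an unadjusted p under 0.05, where 27.9% of all tested genes lay. The smallest p-values were those of AMOTL1, an angiomotin, at 6.36 ± 0.934 FPKM with doxycycline and 8.66 ± 0.329 FPKM without it (adjusted p = 0.0596), and ARHGEF2, a RHOA activator that is held at tight junctions, at 20.2 ± 2.22 FPKM with it and 15.5 ± 1.24 FPKM without it (0.0619). Of 3 tested other desmosome genes, 0 passed and 2 had an unadjusted p under 0.05, too few genes to set against that share. These were PKP4 (18.2 ± 1.69 FPKM with doxycycline and 22.3 ± 0.540 FPKM without it, adjusted p = 0.0817) and DSC3 (3.74 ± 0.145 FPKM with doxycycline and 3.00 ± 0.188 FPKM without it, adjusted p = 0.156).

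Of 24 tested other polarity genes 0 were higher and 1 was lower (4.17%, against 4.77% of all tested genes). MARK1, a PAR1-family kinase of the basolateral side, fell to 2.08, 2.12 and 1.996 FPKM with doxycycline, against 3.49, 4.05 and 4.05 FPKM without it (log2 change -0.66, limma adjusted p = 0.0101, and 0.0552 without untreated replicate 2).

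Of 17 tested other identity genes 1 rose (5.88%) and 2 fell (11.8%), against 3.69% and 4.77% of all tested genes. ELF3, an ETS factor of simple epithelia, was at 63.5, 55.8 and 62.7 FPKM with doxycycline, against 97.8, 88.6 and 89.2 FPKM without it (log2 change -0.59, limma adjusted p = 0.00612). Dropping any 1 library left ELF3 past the threshold (largest adjusted p 0.0295). The related factor EHF was at 4.25, 5.23 and 3.62 FPKM with doxycycline, against 6.71, 8.20 and 6.63 FPKM without it (log2 change -0.61, adjusted p = 0.0268). OVOL2, the paralogue of OVOL1, was at 1.83, 1.59 and 1.44 FPKM with doxycycline, against 0.802, 0.641 and 0.713 FPKM without it (log2 change 0.61, adjusted p = 0.0241). EHF missed the threshold without treated replicates 1 and 3 (0.0618 and 0.0610) and untreated replicates 1, 2 and 3 (0.0606, 0.106 and 0.0530). OVOL2 missed it without treated replicates 1 and 2 (0.0768 and 0.0716) and untreated replicates 1, 2 and 3 (0.0560, 0.0957 and 0.0560).

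Transcription factors tied to loss of the epithelial state, with SNAI and ZEB repressors among them, and mesenchymal genes were often below the filter. In all 6 libraries, 6 of the 11 factors and 9 of the 14 mesenchymal genes were under 1 FPKM. Of the 11 factors 4 were tested, with mean levels from 1.81 to 57.9 FPKM. Of these 4, 0 passed by limma and 0 had an unadjusted p under 0.05, where 27.9% of all tested genes lay. SNAI1 was at 6.97, 6.91 and 7.48 FPKM with doxycycline, against 6.86, 6.27 and 5.87 FPKM without it (adjusted p = 0.356). ZEB1 was at 2.17, 1.89 and 1.75 FPKM with doxycycline, against 2.42, 1.14 and 1.496 FPKM without it (adjusted p = 0.605). Of 14 mesenchymal genes 5 were tested, all with a negative change (median log2 change -0.23). Of these 5, 0 passed and 1 had an unadjusted p under 0.05. S100A4 was at 235 ± 33.4 FPKM with doxycycline and 278 ± 10.99 FPKM without it (adjusted p = 0.146, and 0.0141 without treated replicate 3), and ACTA2 at 4.30 ± 0.617 FPKM with doxycycline and 5.61 ± 1.05 FPKM without it. VIM, vimentin, was under 1 FPKM in all 6 libraries, and CDH2, N-cadherin, under 0.1 FPKM.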

How the data were processed

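The deposited table holds a value per gene and library. The authors' values were read as FPKM because low values step with transcript length; no header gives a unit. Per the submitters' processing notes, which give neither version nor role, the tools were kallisto, RSEM, Cufflinks, STAR, BWA and Bowtie, and the build hg19. The loci fit GRCh38 instead: of 39331 gene identifiers with the same version in GENCODE 29, 39321 had its locus once the start was counted from 1. Other versions, 16 members among them, can differ in locus, and loci are given as in the table. Exon overlaps are those of GENCODE 29. Depth was estimated from the step of 1 fragment in single-exon genes longer than 1000 bases.

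Genes reaching 1 FPKM in 3 or more libraries entered limma 3.58.1 (R 4.3.3) as log2(FPKM + 1) (trended, robust empirical Bayes, group as the only term, two-sided, Benjamini-Hochberg over all tested genes, threshold 0.05). This scale understates changes of low genes. The fit was tested on simulated data, but with no requirement to recover changes as small as those of the members past the threshold. Values of every library were given for members past the threshold and, per class, for the 2 highest and the 2 with the smallest p. CDH1, CLDN1, CLDN2, GRHL2, PARD6A, PARD6G and the partners of PAR6 were chosen after their values were seen. From the other lists, genes past the threshold were named, or the 2 with the smallest p. Members and lists were chosen with earlier results of these data known.

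Alternatives were pseudocounts of 0.1 and 5, no filter, other scalings, a plain empirical Bayes fit, a replicate block, each library left out, and a correction for transcript length and GC content, for which 14406 tested genes had a value.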

Additional observations from a re-analysis of the deposited data

How the results depend on the processing

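PARD6B kept its direction and passed under all 14 alternatives, and CAPG likewise (log2 change -2.68 to -2.53 with a library left out). The count of members past the threshold did not hold. It was 5 higher and 1 lower, and became 1 and 0 with no filter on low values, 2 and 1 with equal FPKM totals, 2 and 0 with a plain empirical Bayes fit, and 8 and 2 after the length and GC correction. With a library left out it ranged from 1 to 3 higher and from 0 to 1 lower. Over all tested genes, 534 higher and 691 lower became 53 and 100 with no filter, 354 and 605 with the plain fit, 1219 and 1256 after the length and GC correction, and 76 to 412 and 147 to 588 with a library left out. The cause was not tested. Same-numbered libraries shared little deviation from their group means (correlations over genes -0.04, 0.01 and -0.02). No label says whether they were handled together, and these correlations cannot settle it. With a replicate block 69 genes were higher and 142 lower, and 1 member was higher and 0 lower.

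Of 532 results for members under the alternatives, 24 changed sign, in 10 genes that did not pass. With equal totals these were JUP (-0.043), CLDN12 (-0.050), TJP1 (-0.021) and OVOL1 (-0.025). After the length and GC correction they were AFDN (0.038), CLDN12 (-0.020), DSP (0.030) and DSG2 (0.0057). With a library left out the log2 changes ranged from -0.10 to 0.12 (JUP), -0.026 to 0.14 (NECTIN1), -0.10 to 0.11 (AFDN), -0.13 to 0.024 (CLDN4), -0.047 to 0.071 (CLDN12), -0.0012 to 0.070 (TJP1), -0.11 to 0.081 (DSP), -0.074 to 0.066 (DSG2), -0.0019 to 0.39 (GRHL2) and -0.036 to 0.12 (OVOL1).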

Other observations

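The make-up of some junction families can be read from the summed FPKM of their genes, as a description without a test. Among the 6 member claudins, CLDN7 held 44.5%, 44.9% and 45.5% of the sum with doxycycline, against 48.3%, 48.9% and 46.5% without it, and CLDN4 held 39.9%, 39.99% and 40.3% with doxycycline, against 39.8%, 38.2% and 38.3% without it. CLDN3 held 3.37%, 3.92% and 4.13% with doxycycline, against 3.06%, 2.82% and 2.83% without it.

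Among the plakins DSP, PPL and EVPL, the share of EVPL was 16.8%, 17.3% and 21.4% with doxycycline, against 14.8%, 13.6% and 12.3% without it, while the sum of the 3 was 79.0 ± 7.84 FPKM with doxycycline and 78.5 ± 3.48 FPKM without it. The summed MARVEL proteins were at 41.0 ± 1.74 FPKM with doxycycline and 34.2 ± 0.923 FPKM without it (SD, n = 3 each), and MARVELD3 held 41.4%, 37.3% and 41.8% of them with doxycycline, against 36.6%, 35.5% and 37.9% without it. The desmocollins had close proportions in both groups, with DSC2 at 83.3%, 83.0% and 83.3% of the desmocollin sum with doxycycline, against 82.7%, 81.7% and 83.3% without it.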
